A study of Arabidopsis thaliana with 3 samples.

Results

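The genes described here are 8 loci of Arabidopsis thaliana that act as the sieve element of the phloem matures, chosen by name. They are the transcription factors NAC045 (AT3G03200) and NAC086 (AT5G17260), the exonuclease-domain genes NEN1 (AT5G07710), NEN2 (AT5G61390) and NEN4 (AT4G39810), the callose synthase CALS7 (AT1G06490), and the sieve element occlusion genes SEOR1 (AT3G01680) and SEOA (AT3G01670). A probe belonged to a locus if the transcript it was designed on did. This gave 9 probes for the 8 genes, of 43603 probes and 25383 genes on the array, with 2 probes for NEN2 and 1 for each of the others.

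Sieve elements are the conducting cells of the phloem. As they mature they lose the nucleus and most organelles while staying alive, and the companion cells beside them supply them from then on. In the Arabidopsis root, NAC045 and NAC086 act downstream of FE, also called ALTERED PHLOEM DEVELOPMENT (APL), a MYB-type transcription factor needed for phloem identity, and the NEN genes act downstream of these NAC factors as the nucleus breaks down. CALS7 deposits the callose that shapes the pores of the sieve plate, and SEOR1 and SEOA encode the protein filaments that lie in the lumen of the mature cell.

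RNA of whole seedlings on day 7 was hybridised to 3 two-colour arrays. Of these, 2 set the mutant fe-1 against wild type of the accession L.er, as biological replicates, with untreated seedlings collected at zeitgeber time 15 h. The other array set seedlings of the line 35S::FE-GR (#5) kept for 2 h in 1 µM dexamethasone (Dex) against mock-treated seedlings of the same line, both collected at zeitgeber time 14 h. All plants grew in long days at 22 °C on medium with 1% sucrose. FE-GR is FE joined to the hormone-binding part of the glucocorticoid receptor, which holds a fused protein outside the nucleus until Dex is given, and the 35S promoter is active in most cell types, so the fusion is not limited to the phloem. It stands for 1 line, its accession is not given in the labels, and Dex on plants without the fusion was not analysed here. The lesion of fe-1 is not given in the labels either.

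On every array fe-1 or Dex RNA was in Cy5 and wild-type or mock RNA in Cy3, so the dye cannot be told apart from the genotype or the treatment. In each channel, 72.1% to 78.1% of gene spots were well above background, and 0 were saturated. The number of arrays limits the precision, and the p-values rest only on the spread between the 2 fe-1 arrays. In limma the spread of each gene is drawn towards that of all genes (1 residual and 6.54 prior degrees of freedom). A p-value here thus rests little on the gene's own 2 ratios for its spread. FE itself read 10.2 and 10.1 (log2 channel level) in wild type and 10.0 and 9.91 in fe-1, and 13.5 in mock and 13.2 in Dex. The FE probe was thus far brighter in both samples of the overexpression line. In fe-1 its log2 ratio fell by 0.17 ± 0.031 (SD, n = 2, limma adjusted p = 0.0432), but its other 2 probes read 0.06 and 0.00 (adjusted p = 0.485 and 0.960 in a fit over probes). The call for FE was kept in 2 of 8 alternative processings, with a limma adjusted p of 0.0361 to 0.602 over the 8. Photosynthetic and root hair markers were present in every channel: all 5 photosynthetic and all 4 root hair genes listed were well above background throughout.

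In fe-1, 1 of the 8 genes rose and 1 fell, and both calls were lost in 3 of 8 alternative processings. NEN2 was higher in fe-1 on both arrays, by 1.21-fold in the mean, and SEOA was lower on both, with wild type 1.39-fold above the mutant. The other 6, among them both NAC factors, were not called. In 1 of them, NEN4, the mutant spots were not well above background, and the 95% intervals of the log2 ratios of the other 5 lay between -0.28 and 0.22. Over all 20680 genes tested, 8.9% were called higher and 11.4% lower at the same threshold (limma, adjusted p under 0.05), against 12.5% of the 8 genes in each direction. Both shares lie near those of all genes and are not a result about the sieve element genes as a group. On the Dex array NEN2 stood apart from the other members with 1.95-fold more signal in Dex than in mock, and 0 of the 8 genes reached 2-fold in either direction, where 3.58% of the 20494 genes read were higher in Dex by 2-fold or more and 2.95% lower. That count of 0 became 1, with NEN2, in 4 of 8 alternative processings.

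**Figure D1:**
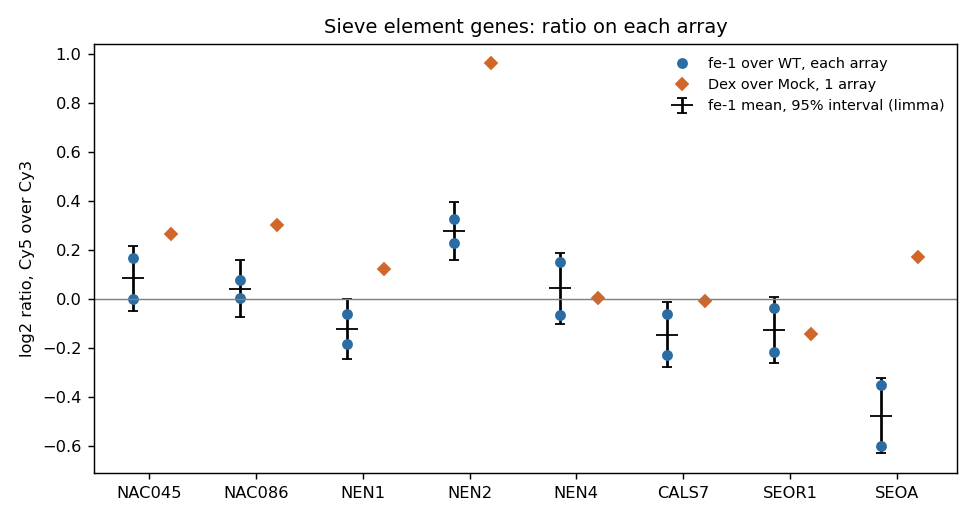
The log2 ratio of Cy5 over Cy3 (vertical axis) is shown for each of the 8 genes, with circles for the 2 fe-1 arrays, the fe-1 mean and its 95% interval from limma, and a diamond for the Dex array. The interval lies above 0 for NEN2 and below 0 for SEOA and CALS7, and the Dex value of NEN2, 0.96, lies far above those of the other genes, which span -0.14 to 0.30.

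NAC045 and NAC086 are the pair of NAC-domain factors that set off the loss of the nucleus. NAC045 had a log2 level of 6.58 and 6.69 in wild type on arrays 1 and 2, 6.75 and 6.69 in fe-1, 6.44 in mock and 6.71 in Dex. Its log2 ratio in fe-1 was 0.17 on array 1 and 0.00 on array 2, so the replicates differed by more than their mean of 0.09 ± 0.12 (SD, n = 2, limma adjusted p = 0.321, 95% interval -0.05 to 0.22). NAC086 read 6.84 and 6.90 in wild type, 6.92 and 6.90 in fe-1, 6.79 in mock and 7.10 in Dex. The 2 wild-type and 2 mutant levels of each gene lay close together, but both genes were dim. On array 1, NAC045 had a Cy5 intensity of 102 over a local background of 59 and a Cy3 intensity of 46 over 16. NAC086 had 113 over 60 and 61 over 16. With the scanner's processed signals the fe-1 log2 ratio of NAC045 was 0.30 (limma adjusted p = 0.0798), above the interval given. That of NAC086 was 0.11 (limma adjusted p = 0.205). The mean log2 ratio of NAC086 in fe-1 was 0.04 ± 0.053 (SD, n = 2, limma adjusted p = 0.568, 95% interval -0.07 to 0.16). With Dex the log2 ratio was 0.27 for NAC045 and 0.30 for NAC086, or 1.20-fold and 1.23-fold. Of all genes on that array, 17.9% read as high as NAC045 or higher and 15.6% as high as NAC086 or higher. Centred on the array's median alone, NAC045 read 0.10 and NAC086 0.23, where the median of all genes was 0.22, and with the scanner's processed signals NAC086 read 0.62.

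The NEN genes encode proteins with an exonuclease domain that, in the root, are made late in sieve element differentiation. NEN2 had the highest log2 ratio of the 8 genes in both comparisons. Its brighter probe read 7.55 and 7.72 (log2 level) in wild type and 7.78 and 8.04 in fe-1, so both mutant samples lay above both wild-type samples. Its log2 ratio was 0.23 on array 1 and 0.33 on array 2, a mean of 0.28 ± 0.069 (SD, n = 2, limma adjusted p = 0.00968, 95% interval 0.16 to 0.40). Of all genes tested in fe-1, 3.34% were as high or higher. The same probe read 8.48 in mock and 9.44 in Dex on the remaining array, a log2 ratio of 0.96, and 774 of 20494 genes (3.78%) read as high or higher. The Dex ratio came from spots far above their surroundings, with a Cy5 intensity of 1202 over a local background of 65.5 and a Cy3 intensity of 302 over 17.

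The second probe of NEN2 was dimmer and also lay above 0 on all 3 arrays. It read 6.64 and 6.63 in wild type, 6.78 and 6.83 in fe-1, 7.20 in mock and 8.04 in Dex (log2 level). Its log2 ratio in fe-1 was 0.14 on array 1 and 0.20 on array 2, a mean of 0.17 ± 0.042 (SD, n = 2), with an adjusted p of 0.0362 in a limma fit over 28692 probes. Its Dex over mock log2 ratio was 0.83. In both probes the Cy5 sample was the higher one on every array, and no dyes were swapped, so a dye effect of these probes cannot be told apart from the genotype and the treatment. The fe-1 call of NEN2 was lost in 3 of 8 alternative processings (non-uniform background spots kept, the scanner's processed signals, and the deposited series table), where the log2 ratio ranged from 0.17 to 0.43 and the adjusted p (limma) from 0.0552 to 0.543.

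NEN1 did not pass the test in fe-1. It read 9.60 and 9.52 in wild type, 9.41 and 9.46 in fe-1, 9.38 in mock and 9.51 in Dex (log2 level). The mutant samples both lay below the wild-type samples, by a log2 ratio of -0.18 on array 1 and -0.06 on array 2, and the mean of -0.12 ± 0.087 (SD, n = 2) had a limma adjusted p of 0.145. Its Dex over mock log2 ratio was 0.12, and 0.42 with median centring alone, where the median of all genes was 0.22.

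NEN4 was near the limit of the array in the fe-1 comparison. The mutant channel was not well above background on either array: its Cy5 intensities were 68.5 and 82 over local backgrounds of 58 and 55.5, while the wild-type Cy3 intensities of 29.5 and 34, over 18 and 19, were. No fold is therefore given in fe-1. The measured log2 levels were 6.17 and 6.21 in wild type and 6.11 and 6.36 in fe-1, so the groups overlapped, and the sign of the difference was not the same on both arrays. In mock and Dex it was well above background at 6.81, a log2 ratio of 0.01.

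**Figure D2:**
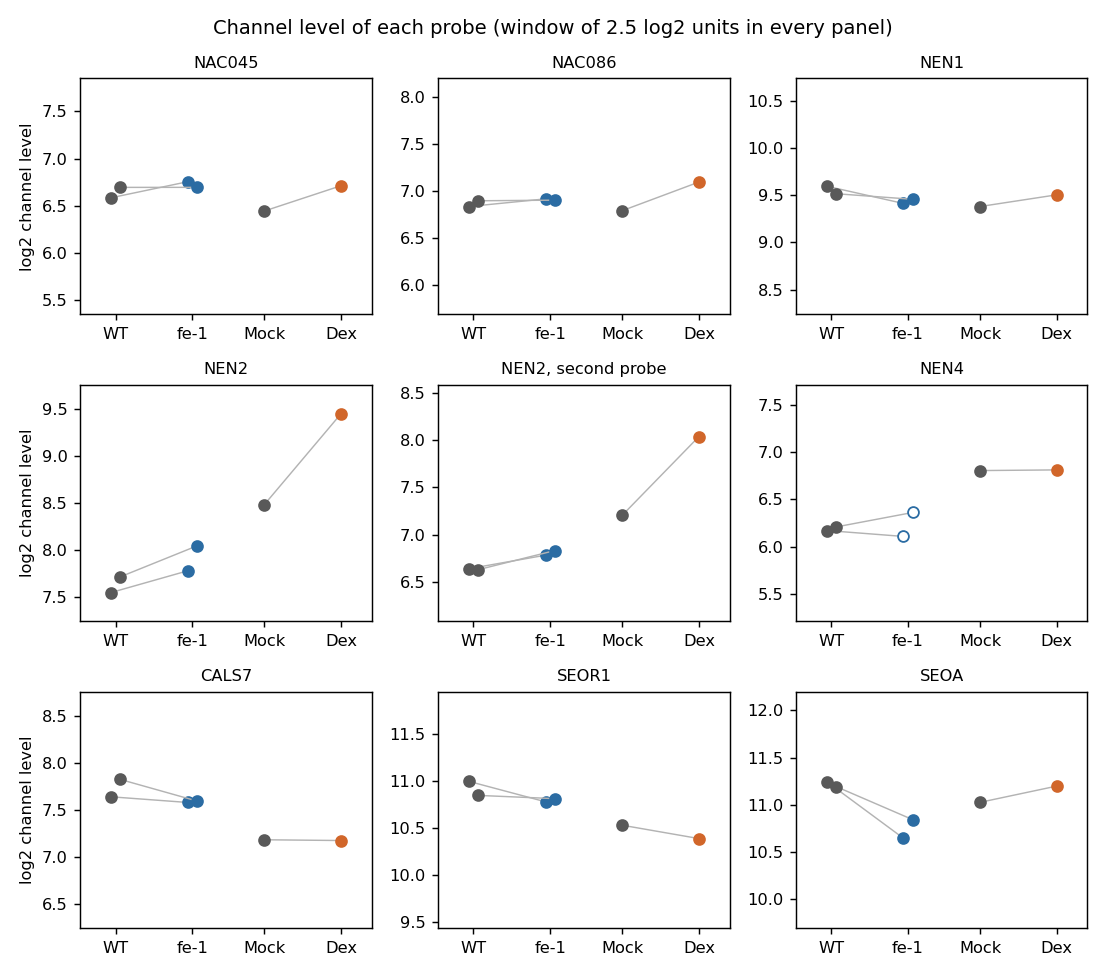
The log2 channel level after normalization (vertical axis, a window of equal height in every panel) is shown for each of the 9 probes in wild type, fe-1, mock and Dex, with a line joining the samples of 1 array and open circles where a spot was not well above background. NEN2 is higher in fe-1 than in wild type and higher in Dex than in mock with both probes, SEOA is lower in fe-1, and the 2 open circles are NEN4 in fe-1.

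CALS7, the callose synthase of the sieve plate, read 7.64 and 7.82 in wild type and 7.58 and 7.59 in fe-1 (log2 level). Both mutant samples lay below both wild-type samples, but by unequal amounts, with a log2 ratio of -0.06 on array 1 and -0.23 on array 2. The mean of -0.14 ± 0.12 (SD, n = 2, 95% interval -0.28 to -0.01) had an unadjusted p of 0.0363 in limma and did not pass after adjustment over all genes (adjusted p = 0.114). CALS7 read 7.18 in both channels of the Dex array, a log2 ratio of -0.01.

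SEOR1 and SEOA are neighbours on chromosome 3, next to each other in the gene table, and encode the P-proteins of the sieve element. SEOR1 read 11.0 and 10.8 in wild type and 10.8 and 10.8 in fe-1 (log2 level). Its log2 ratio was -0.22 on array 1 and -0.03 on array 2, a mean of -0.13 ± 0.13 (SD, n = 2, limma adjusted p = 0.166, 95% interval -0.26 to 0.01). In the Dex comparison SEOR1 read 10.5 in mock and 10.4 in Dex, a log2 ratio of -0.14, which was 0.19 when that array was only centred on its median, where the median of all genes was 0.22.

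SEOA showed the clearest drop in the mutant among the 8 genes. It read 11.2 and 11.2 in wild type and 10.6 and 10.8 in fe-1 (log2 level), so both mutant samples lay below both wild-type samples. The log2 ratio was -0.60 on array 1 and -0.35 on array 2, and the mean fell by 0.48 ± 0.18 (SD, n = 2, limma adjusted p = 0.00332, 95% interval -0.63 to -0.32). Of the 20680 genes tested, 350 (1.69%) were as low or lower. In the Dex comparison SEOA read 11.0 in mock and 11.2 in Dex, a log2 ratio of 0.17, and 26.8% of genes read as high or higher. With median centring alone it was 0.51, where the median of all genes was 0.22. Like that of NEN2, the fe-1 call of SEOA was lost in the same 3 of 8 alternative processings, with a log2 ratio between -0.49 and -0.41 over all 8 and an adjusted p (limma) of up to 0.141. The difference between SEOA and its neighbour SEOR1 in fe-1 was not tested.

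**Figure D3:**
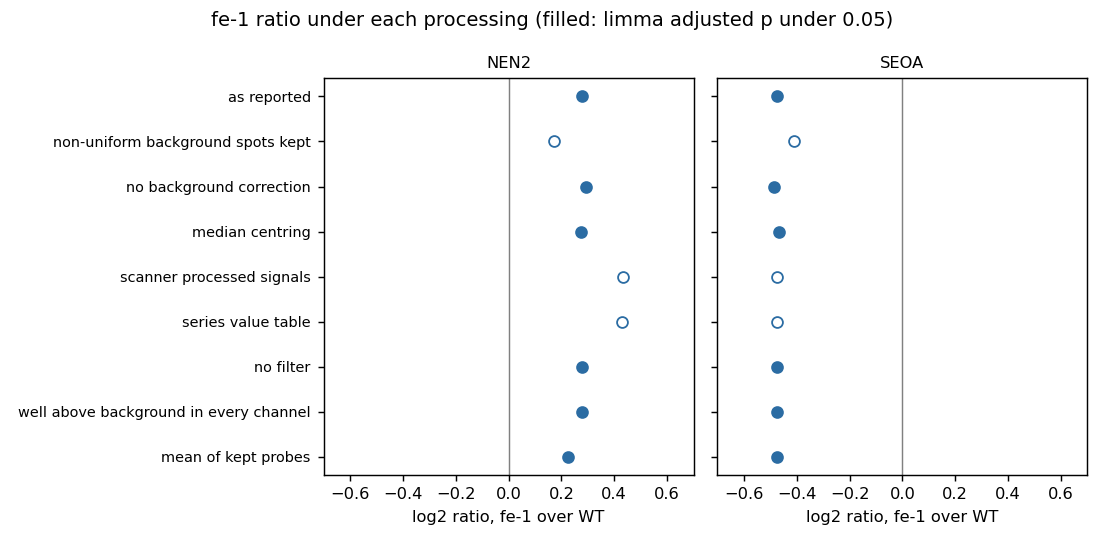
The mean log2 ratio of fe-1 over wild type (horizontal axis) is shown for NEN2 and SEOA as reported and under the 8 alternative processings, filled where the limma adjusted p was under 0.05. All values of NEN2 lie above 0 and all values of SEOA below 0, and 3 of the 8 alternatives are open for each gene.

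Whole seedlings hold many cell types, and in such samples fewer cells of a type and less RNA per cell cannot be told apart. In fe-1, all 4 root hair genes listed (EXPA7, SHV2, EXPA18 and RHS19) fell, with a median log2 ratio of -1.15, and their summed linear level was 1365 and 1167 in fe-1 against 2814 and 2627 in wild type. Of 7 xylem genes, 2 fell and 5 did not pass, with 4 lower and 0 higher at an unadjusted limma p under 0.05. Their median log2 ratio was -0.17, with sums of 8073 and 8170 in fe-1 against 9158 and 9617 in wild type. Of 5 photosynthetic genes, 3 rose and 2 did not pass, with sums of 710129 and 670717 in fe-1 against 545215 and 536727 in wild type. Over all genes tested, 8.9% were called higher and 11.4% lower. All markers of the root hair, xylem and photosynthetic lists were well above background in every channel. The root hair genes and 2 of the xylem genes thus fell as SEOA did and 3 of the photosynthetic genes rose as NEN2 did, and their part in the results for either gene was not tested. No marker of the root as a whole or of its phloem is among the root hair genes. On the Dex array the root hair sum was 1406 in Dex and 1423 in mock, and the xylem sum 5589 in Dex and 6372 in mock. Of the 7 xylem genes, 0 lay above 0 there (median log2 ratio -0.18). The photosynthetic sum there was 629454 in Dex and 481295 in mock, with 4 of the 5 genes above 0 (median log2 ratio 0.22). Its Cy5 sum was thus the higher one on all 3 arrays, as for NEN2, and that of the xylem list the lower one. The cause was not tested.

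Among the lists compared, the companion cell genes had the highest median on the Dex array. Of 7 companion cell genes read there, all 7 lay above 0 and 4 were at least 2-fold higher in Dex, beside 3.58% of all genes. Their median log2 ratio was 1.29, while the 8 sieve element genes had a median of 0.15 and all genes one of 0.00. The companion cell list was chosen with earlier results of the Dex array known, so its count is no independent evidence of a direction. The 4 were SUC2 (3.20), which loads sucrose into the phloem, NAKR1 (2.60) and FTIP1 (1.29), which act in the transport of the flowering signal FT, and the proton pump HA3 (1.76). Their list summed to 60985 in Dex and 18640 in mock on the linear scale. In fe-1, 1 of 8 companion cell genes was called higher and 3 lower, beside 8.9% and 11.4% of all genes. FTIP1 fell by 0.55 ± 0.023 and NAKR1 by 0.28 ± 0.068 (SD, n = 2, limma adjusted p = 0.000435 and 0.00923). SUC2 (-0.06) and HA3 (-0.15) did not pass in fe-1 (limma adjusted p = 0.511 and 0.152). The companion cell genes had a median log2 ratio of -0.11 there. The 8 sieve element genes had a median of -0.04 (-0.12 over the 7 without NEN4), all genes one of -0.01. The companion cell sums were 16418 and 18213 in fe-1 against 18656 and 17895 in wild type, so the sums of the groups overlapped. With 1 array, the Dex values have no replicate check.

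Of 16 family relatives of the 8 genes, 14 were tested in fe-1, namely other NAC factors, NEN3 and other callose synthases. AT1G67790 and CALS5 (AT2G13680) were listed but had no value in either comparison. No relative of SEOR1 and SEOA was among the genes tested. Of the 14 tested, 0 rose and 1 fell (limma, adjusted p under 0.05), beside 8.9% of all genes called higher and 11.4% lower. At an unadjusted limma p under 0.05, 2 were higher and 1 lower, and the median log2 ratio was -0.01. The gene that fell was NAC020 (AT1G54330), by 0.19 ± 0.094 (SD, n = 2, limma adjusted p = 0.0426). NEN3 (AT1G74390), the fourth gene of the NEN family, had a log2 ratio of 0.16 ± 0.051 (SD, n = 2) in fe-1 and did not pass (limma adjusted p = 0.0545), and it read -0.11 on the Dex array. On that array NEN2 read 0.96 and NEN1, NEN3 and NEN4 between -0.11 and 0.12, without a test. GSL03 (AT2G31960), a callose synthase gene, was the relative that passed 2-fold there, with a log2 ratio of 1.14. It was 1 of 14 relatives read, beside 3.58% of all genes higher by 2-fold or more.

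The other sieve element genes listed act mainly in protophloem specification and signalling. Of 18 tested in fe-1 with limma, 5 rose, 0 fell and 13 did not pass, with 7 higher and 2 lower at an unadjusted p under 0.05 and a median log2 ratio of 0.03, beside 8.9% of all genes called higher, 11.4% called lower and a median of -0.01. Named among them are RTM1 (0.46 ± 0.036, SD, n = 2, limma adjusted p = 0.0011) and RTM2 (0.33 ± 0.085, SD, n = 2, limma adjusted p = 0.00592), which restrict long-distance movement of a virus in the phloem, and the DOF factor HCA2 (0.38 ± 0.040, SD, n = 2, limma adjusted p = 0.0025). On the Dex array 3.58% of all genes were higher by 2-fold or more and 2.95% lower. Of the 18, 0 were lower by as much, and the median was -0.11. Higher by as much were 2, HCA2 with a log2 ratio of 1.44 and SMXL3 (AT3G52490) with 1.30. HCA2 therefore read above 0 on all 3 arrays, as NEN2 did, and so did RTM1 (0.48 on the Dex array) and RTM2 (0.03 there). NAC045 and NAC086 read 0.00 and 0.01 on array 2 of fe-1, too near 0 to give a sign. The share of all genes above 0 on all 3 arrays was not counted.

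**Figure D4:**
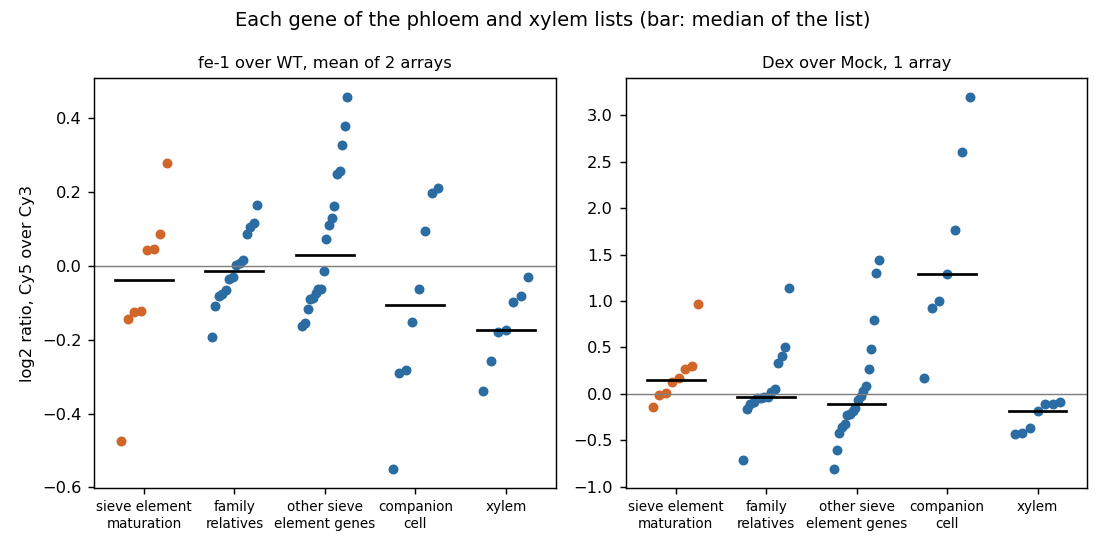
Each point is 1 gene, with its log2 ratio of Cy5 over Cy3 on the vertical axis and its list on the horizontal axis, in fe-1 (left, mean of 2 arrays) and on the Dex array (right), and a bar marks the median of each list. On the Dex array the companion cell genes have a median of 1.29, and the sieve element maturation genes one of 0.15, with NEN2 as their highest point.

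**Figure D5:**
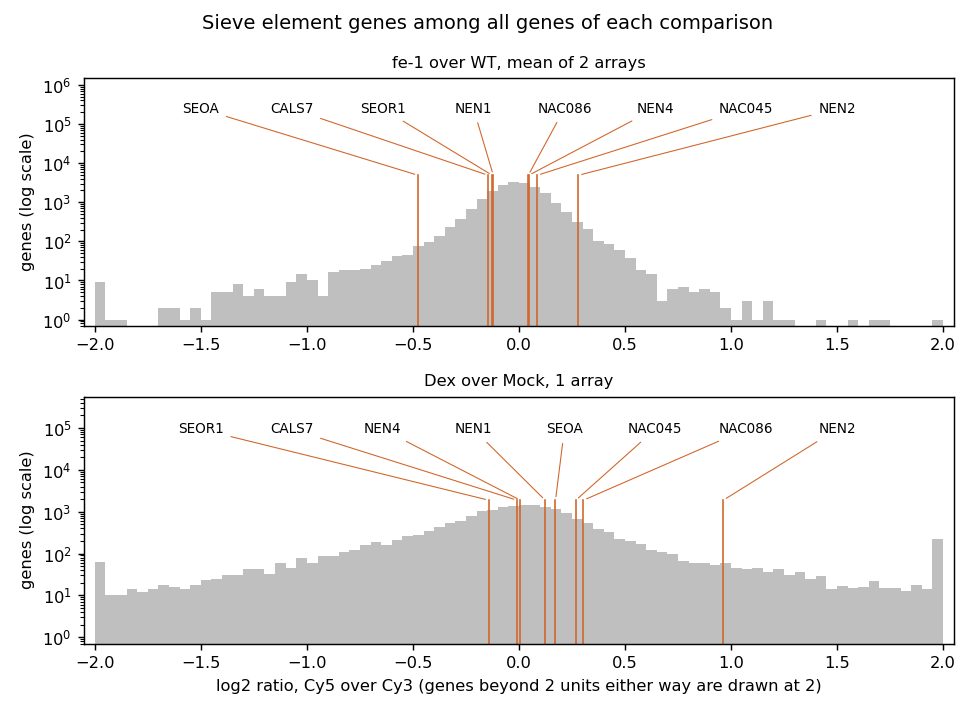
Grey bars count genes (log scale) by log2 ratio in fe-1 (upper panel) and on the Dex array (lower panel), with genes beyond 2 log2 units drawn at 2, and a line marks each of the 8 genes. SEOA lies in the lower tail in fe-1, where 1.69% of genes are as low or lower, and NEN2 in the upper tail on the Dex array, where 3.78% are as high or higher.

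The mock sample of 35S::FE-GR and the wild-type samples allowed a further reading, between arrays and without a test. They differ in line, array slide, collection time and mock treatment, which cannot be told apart. Over all probes read, the log2 level in mock minus the mean of wild type had a median of -0.05 and an SD of 0.662. NEN2 was 0.85 higher in mock than in wild type, and 1122 of 20680 probes (5.43%) were as high or higher. NEN4 was 0.62 higher, with 9.30% of probes as high or higher. CALS7 was lower in mock by a log2 difference of -0.55 and SEOR1 by -0.39, and the differences of NAC045, NAC086, NEN1 and SEOA lay between -0.20 and -0.07.

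Genes with the pattern most like a member were looked up for the 2 members farthest from 0 on the Dex array, by Euclidean distance over the log2 ratios of the 3 arrays among 19979 genes. Nearest to NEN2 were EXO70D2 (AT1G54090) at a distance of 0.0631, AT1G67720 at 0.0711 and AT1G69840 at 0.0974, and 3 genes in all lay within 0.1. EXO70D2, a subunit of the exocyst, read 0.25 and 0.27 in fe-1 and 0.95 on the Dex array. Nearest to NAC086 were UBA 2 (AT5G06460) at 0.0132, AT3G61723 at 0.0178 and CSN6B (AT4G26430) at 0.0213, and 459 genes lay within 0.1, so its pattern was a common one. With 3 arrays, such likeness is a description only.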

How the data were processed

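Per the labels, each array held 2 samples of whole seedlings, labelled from 0.1 µg of RNA each. Spot intensity values come from the deposited scanner files (Agilent Feature Extraction 10.7 per the submitters' processing notes, 10.7.3.1 per the file headers), with no normalization in the median spot and local background intensities used here. They also hold processed signals and a log10 ratio per spot, background-subtracted and dye-normalized per the file headers. The log2 ratios (Cy5 over Cy3) of the authors' deposited series table match that log10 ratio, converted, within 0.005, with column medians of 0. Every value column was matched to a sample (0 unmatched).

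In limma 3.58.1 (R 4.3.3), gene spots whose local background was non-uniform (32 on the first fe-1 array, 0 on the others) were left out. Any control spots so marked were left out as well. Background was corrected by normexp (offset 50), and loess was run within each array, with control and outlier spots at weight 0. Outlier spots were also left out of the probe values. In all, 43 and 10 gene spots were left out on fe-1 arrays 1 and 2, and 8 on the Dex array. Channel levels were scaled over the 3 arrays with Aquantile, which leaves ratios unchanged. Accessions of 34285 probes matched a RefSeq gene table (TAIR10.1), which gave each probe its locus, gene name and gene order. The 9318 probes without a match were left out of the gene values and the test. The array annotation is of an older build. Probes well above background in 2 or more of the 4 fe-1 channels, or in 1 of the 2 Dex array channels, were kept, and the brightest kept probe stood for the gene, which all 8 members passed. The mean log2 ratio of the 2 fe-1 arrays was tested against 0 with lmFit and eBayes (1 residual and 6.54 prior degrees of freedom), and p-values of 20680 genes were adjusted by Benjamini-Hochberg. The fit was run on simulated ratios drawn with the spread it had itself estimated. This checks the calculation only, not the processing of these arrays. The Dex array has no replicate and was described with a 2-fold rule.

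Named genes are all members, FE and 3 nearest genes for each of 2 members. From the relatives, other sieve element, companion cell and root hair lists, up to 4 genes were named by size. These passed in fe-1 or reached 2-fold on the Dex array. Genes of the xylem and photosynthetic lists were not named, also where they passed. AT1G67790 and CALS5 were named as relatives without a value. NEN3 was named after its values were seen. Members and lists were chosen with earlier results of these data known. Alternatives covered the background step, the normalization, the deposited signals and ratios, the filter, the gene value and each array left out, and a fit over probes was added after seeing the data. Probe and promoter sequences were not used here.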

Additional observations from a re-analysis of the deposited data

How the results depend on the processing

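The fe-1 calls depended on whether spots marked for non-uniform background were left out and on the signals used. The marked spots were 32 gene spots of the first fe-1 array and any control spots so marked. With the spots kept, 10 genes were called higher and 49 lower (2281 at an unadjusted limma p under 0.05) in place of 1841 and 2348, and 0 members in either direction (1 unadjusted), with NEN2 at 0.17 (adjusted p = 0.543) and SEOA at -0.41 (adjusted p = 0.0977). With the scanner's processed signals the counts were 139 and 411, and 0 and 0 members (limma, 5 unadjusted), with NEN2 at 0.43 (adjusted p = 0.0552) and SEOA at -0.47 (adjusted p = 0.0805). With the deposited series table they were 0 and 0 genes (limma, 6036 unadjusted) and 0 and 0 members (4 unadjusted), with adjusted p = 0.134 for NEN2 and 0.141 for SEOA. Without background correction 1804 genes were called higher and 2869 lower, with 1 member each way, and median centring called 1494 genes lower. Calls for the higher side made up 43.9% of all calls as reported, 16.9% with the spots kept, 25.3% with processed signals and 50.2% with median centring.

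The median fe-1 log2 ratio of the members moved from -0.04 to -0.13 without background correction, to -0.15 with the processed signals and with the series table, and to -0.12 over the 7 members well above background in every channel. NEN4, whose mutant spots were near background, turned to -0.13 without background correction (adjusted p = 0.178), to -1.11 with processed signals (adjusted p = 0.205) and to -1.11 with the series table (adjusted p = 0.302). With either fe-1 array alone, the median was -0.06 or -0.02, as values with no test.

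On the Dex array, NEN2 passed 2-fold in 4 of 8 alternatives (1 member each without background correction, with median centring, processed signals and the series table), with a log2 ratio of 0.90 to 1.23. Genes at least 2-fold lower were 389 with median centring, 1211 with processed signals and 1222 with the series table, in place of 604. Those at least 2-fold higher were 1088, 1092 and 1103 in the same order, in place of 733. Median centring put the median of all genes there at 0.22 and that of the members at 0.21. NEN2 kept its positive sign and SEOA its negative sign in fe-1 under all 8 alternatives. The cause of these shifts was not tested. The fe-1 test within each array is itself the paired analysis, and the Dex array had no replicate to leave out.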
